A study of Homo sapiens with 4 samples.

Results

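A set of 10 genes of the amino acid stress response was followed in the established human prostate cancer line C4-2, in enzalutamide-resistant and control cultures. They were chosen by name: the transcription factor gene ATF4, its stress-linked partners or targets DDIT3, TRIB3 and CHAC1, the asparagine synthetase gene ASNS, the serine synthesis genes PHGDH, PSAT1 and PSPH, and the mitochondrial one-carbon genes SHMT2 and MTHFD2. All 10 were found among 60483 gene identifiers, and all 10 passed the filter on low counts that left 20325 genes for testing. The resistant group (C4-2-ENZ) and the control group (C4-2-CON) each had 2 libraries. According to the labels, cells were grown for 1 month with or without the antiandrogen enzalutamide, at passages 20 to 30. Both groups share RPMI medium with serum, and the growth protocol also names FGF-2 without saying which cells received it. Whether control cells got vehicle, and whether a group was 1 clone, is not stated. Drug exposure and resistance go together in this design and cannot be told apart.

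ATF4 is a basic leucine zipper transcription factor made when kinases phosphorylate the initiation factor eIF2alpha, which lowers general translation while favouring translation of ATF4 mRNA through upstream reading frames. In this integrated stress response, ATF4 pairs with C/EBP proteins and binds a composite element in genes for amino acid uptake, amino acid synthesis and tRNA charging. The protein is therefore controlled largely at translation, and an mRNA level does not give the amount or activity of ATF4 protein. Serine is made from a glycolytic intermediate in successive steps by the products of PHGDH, PSAT1 and PSPH, and SHMT2 and MTHFD2 then pass its carbon into the folate cycle of mitochondria.

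The core of that composite element, the C/EBP-ATF response element, was searched for as TGATGNAA on either strand in RefSeq promoter windows (GRCh38.p14), which run from 250 bases before to 50 after each gene's start. Windows were found for 8 of the 10 genes, and PSPH and SHMT2 had none. The 2 windows shown, of ASNS and CHAC1, are the only ones of these genes that held the letters, and capitals mark the match. The ASNS window is chr7:97872359-97872658 on the minus strand, with the match 68 to 61 bases before the start, and the CHAC1 window is chr15:40953221-40953520 on the plus strand, with the match on the opposite strand 209 to 202 bases before the start.
ASNS: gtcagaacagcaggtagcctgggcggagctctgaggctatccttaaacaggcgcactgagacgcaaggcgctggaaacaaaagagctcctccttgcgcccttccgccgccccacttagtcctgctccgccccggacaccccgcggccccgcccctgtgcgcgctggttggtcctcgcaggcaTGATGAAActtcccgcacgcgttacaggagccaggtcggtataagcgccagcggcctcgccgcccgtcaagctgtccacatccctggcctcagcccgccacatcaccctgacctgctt
CHAC1: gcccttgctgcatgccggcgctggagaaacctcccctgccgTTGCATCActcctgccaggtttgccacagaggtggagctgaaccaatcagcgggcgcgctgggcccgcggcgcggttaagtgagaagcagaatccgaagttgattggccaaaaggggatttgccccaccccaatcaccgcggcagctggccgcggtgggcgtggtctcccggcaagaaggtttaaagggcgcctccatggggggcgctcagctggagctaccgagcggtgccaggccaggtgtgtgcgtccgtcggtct

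These letters were in 1270 of 35116 RefSeq windows of the same length (3.62%), or in at least 1 window of 1217 of 27305 genes (4.46%). A second ASNS window, from another start, and the windows of ATF4, DDIT3, TRIB3, PHGDH, PSAT1 and MTHFD2 did not hold them. A match is a run of letters and not a measured binding site, and the absence of a match covers this window only.

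The data were raw gene-level read counts, given here as CPM, a count relative to the scaled total of its library. Scaling was by TMM, which sets library sizes so that most genes centre near no change. Gene counts summed to 45033885 and 39047453 in the resistant libraries and 25589724 and 29866008 in the control libraries. Rows that are not genes held between 55.41% and 56.87% of records in resistant libraries and between 71.08% and 74.4% in control libraries, and unaligned reads were part of that, at 20.32% to 20.66% in resistant and 34.16% to 36.95% in control libraries. Genes of under 400 exonic bases took 8.09% and 8.61% of gene counts in resistant libraries and 14.2% and 14% in control libraries. Library makeup therefore differed with the group, and its part in the results was not tested beyond the scalings and the length and GC correction given below. All 7 luminal prostate markers summed here were detected, KLK3, KLK2 and HOXB13 among them, and their summed level was 3250 and 3230 CPM in resistant libraries and 2788 and 2852 CPM in control libraries, a difference whose part in the results was not tested. The markers split: KLK3 and KLK2 were called lower (log2 fold changes of -0.49 and -0.13), and FOLH1, TMPRSS2, HOXB13, KRT8 and KRT18 were called higher. KLK2 turned to 0.059 under total count scaling, and both turned positive under scaling by summed counts per kilobase (0.19 and 0.55). Summed fibroblast markers reached at most 9.693 CPM in any library, endothelial markers 4.656 CPM and leukocyte markers 0.4276 CPM. COL1A2 and CD3E were listed at 0 in every library, but so was XBP1 (below), so a listed 0 may not show absence.

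On the TMM scale 9 of the 10 genes were lower in resistant cells and 0 were higher, and ASNS, PSPH, MTHFD2 and PSAT1 were at least 2-fold lower. The count of genes at least 2-fold lower was 2 (ASNS and PSPH) with the length and GC correction and under total count scaling, and 0 when libraries were scaled by summed counts per kilobase. Of all genes tested, 31.7% were called lower, 33% higher and 10.1% lower by at least 2-fold, at an adjusted p below 0.05 in edgeR's quasi-likelihood test with Benjamini-Hochberg adjustment over all genes tested. The median log2 fold change, resistant over control, was -0.72 over the 10 genes and -0.016 over all genes tested. The summed level per kilobase of exon was 553.7 and 550.7 CPM per kilobase in resistant libraries and 942.5 and 973.5 in control libraries. Whether the 2 replicates of a group were separate cultures is not labelled, and the p-values then cover only library-to-library spread, possibly technical. In bulk RNA, fewer cells expressing a gene and less RNA per cell cannot be told apart.

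**Figure D1:**
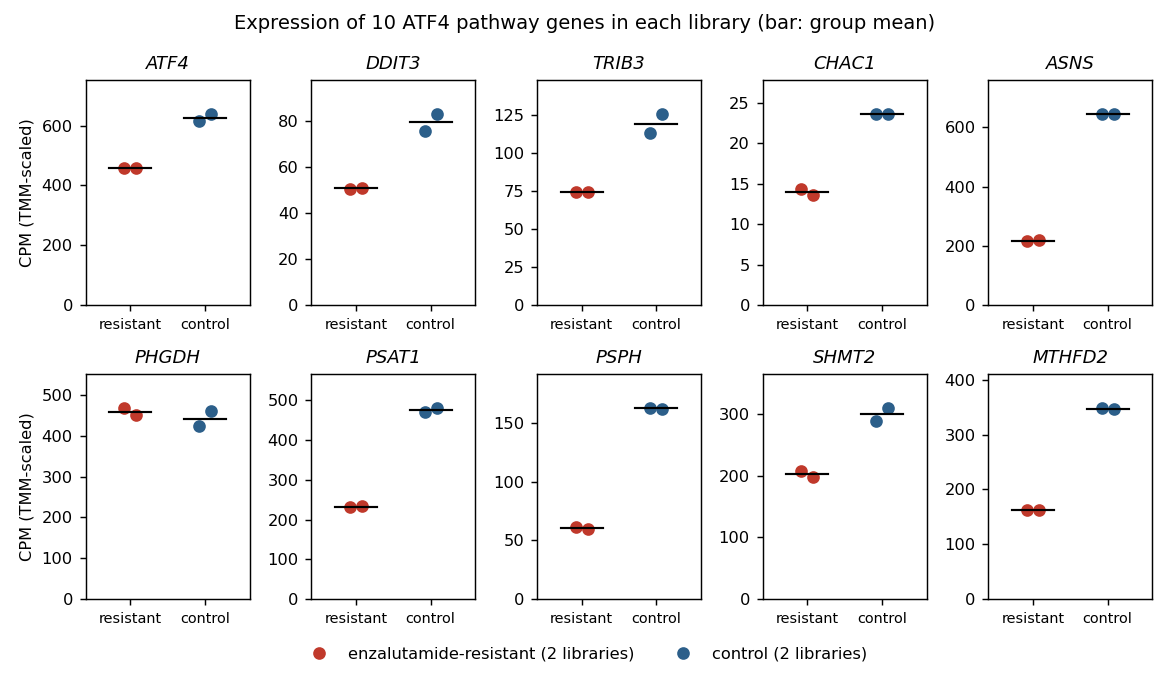
TMM-scaled CPM (vertical axes, each from 0) of the 10 genes in the resistant and control libraries, 1 point per library, with a bar at the group mean. On this scale, in every panel except PHGDH, both resistant libraries lie below both control libraries, as they do for 40.9% of all genes tested.

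The regulator itself was lower by less than most of the 10 genes on the TMM scale. ATF4, on chromosome 22 at 39519695 to 39522685 (GRCh38, GENCODE 29), had 459 and 459.7 CPM in resistant libraries and 613.7 and 638 CPM in control libraries. Both resistant libraries were below both control libraries, and the groups did not overlap for 81.3% of all genes tested. The mean was 459.3 ± 0.501 CPM in resistant cells and 625.8 ± 17.1 CPM in control cells (SD, n = 2 each), a difference of -0.45 in log2 (SE 0.0346, edgeR adjusted p = 3.5e-07), or 1.36-fold lower, which turned to 0.23 when libraries were scaled by summed counts per kilobase. Among all genes tested, 27.7% had a lower log2 fold change than ATF4. Its 4 processed pseudogene copies had at most 18 counts in any library, against at least 14630 for ATF4.

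The stress genes under ATF4 were lower by about the same size as each other on the TMM scale, but not with the length and GC correction, which gave log2 fold changes of -0.46 for DDIT3, -0.88 for TRIB3 and -0.87 for CHAC1. DDIT3 encodes CHOP, a transcription factor of unresolved endoplasmic reticulum stress. It had 50.23 and 51.03 CPM in resistant libraries and 75.68 and 82.89 CPM in control libraries, without overlap between the groups. Its log2 fold change was -0.65 (SE 0.0494, edgeR adjusted p = 3.02e-07). TRIB3, a pseudokinase that restrains ATF4 and AKT signalling, had 74.2 and 74.69 CPM in resistant libraries, against 113.2 and 125.7 CPM in control libraries. TRIB3 showed the widest difference between replicates of the 10 genes, 10.5% of the mean in the control pair, and its log2 fold change was -0.68 (SE 0.0524, edgeR adjusted p = 3.2e-07). CHAC1, which degrades glutathione, had the lowest level per kilobase of the 10 genes. It was at 14.33 and 13.56 CPM in resistant libraries and 23.58 and 23.56 CPM in control libraries. Both resistant values were below the control pair, and the log2 fold change was -0.76 (SE 0.0617, edgeR adjusted p = 5.52e-07).

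DDIT3 lies on chromosome 12 and shares 27.2% of its exonic bases with MARS1, a methionine tRNA synthetase gene on the opposite strand. The strand setting of the counting is not given, so reads in that stretch may be missing or assigned to either gene. Records that HTSeq set aside as ambiguous were 8.067% and 8.046% of gene and ambiguous records in resistant libraries. In control libraries they were 10.38% and 11.25%. The part of this difference in the levels of overlapping genes was not tested. MARS1 had 239.8 and 232.1 CPM in resistant libraries and 276.9 and 294 CPM in control libraries, a smaller difference of -0.27 in log2 (SE 0.0412, edgeR adjusted p = 0.000103).

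ASNS, which makes asparagine from aspartate and glutamine, fell furthest of the 10 genes. It is on chromosome 7 at 97852118 to 97872542, and its promoter window with the element core is shown above. Resistant libraries had 216.7 and 219.1 CPM and control libraries 642.9 and 644 CPM. The difference between the groups was far larger than that within either pair, which was at most 1.1% of the mean. Its log2 fold change was -1.56 (SE 0.0343, adjusted p = 1.61e-11 in edgeR), or 2.95-fold lower, and 3.37% of all genes tested had a lower one.

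The transcribed pseudogene ASNSP1, with 5.081 and 5.235 CPM in resistant libraries and 11.2 and 11.58 CPM in control libraries, was also lower (log2 fold change -1.15, SE 0.0859, edgeR adjusted p = 2.65e-07). Reads can be split between such copies. GENCODE 29 places a processed transcript over 44.6% of the exonic bases of ASNS, and that identifier is not one of those in the count tables.

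The serine pathway did not move as a unit. PHGDH, the first enzyme of the pathway, had 468.1 and 450.5 CPM in resistant libraries and 423.3 and 460.5 CPM in control libraries, and the groups overlapped. Its log2 fold change was 0.055 (SE 0.0435, edgeR adjusted p = 0.287), which does not show that the levels were equal. Its sign and call depended on the settings. PHGDH was called higher under total count scaling (0.24, edgeR adjusted p = 0.000686) and without a count filter (0.15, edgeR adjusted p = 0.0172). It was also called higher with protein-coding totals (0.14, edgeR adjusted p = 0.0129) and summed counts per kilobase (0.73, edgeR adjusted p = 3.3e-14) as library sizes. Without control replicate 2 its log2 fold change was 0.13. With the length and GC correction PHGDH was called lower (-0.27, edgeR adjusted p = 1.18e-05).

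PSAT1, the aminotransferase of the second step, had 231.9 and 232.8 CPM in resistant libraries and 471.3 and 480.8 CPM in control libraries. Replicates differed by at most 2% of their mean, and the groups did not overlap. The log2 fold change of PSAT1 was -1.03 (SE 0.0351, edgeR adjusted p = 3.49e-10). PSPH, the phosphatase that releases serine, had 61.78 and 60.1 CPM in resistant libraries and 162.9 and 162.1 CPM in control libraries, again without overlap. At -1.41 (SE 0.0421, edgeR adjusted p = 1.34e-10), its log2 fold change was the second lowest of the 10 genes, with 4.48% of all genes tested below it. PSPHP1, an unprocessed pseudogene of PSPH with 7.445 and 7.31 CPM in resistant libraries and 15.73 and 19.99 CPM in control libraries, was lower too (log2 fold change -1.28, SE 0.103, edgeR adjusted p = 4.61e-07). Per kilobase of exon PSPHP1 stood at 28.53 and 28.01 in resistant libraries and 60.27 and 76.6 in control libraries. PSPH stood at 22.37 and 21.76 in resistant libraries and 58.98 and 58.68 in control libraries. By raw counts PSPHP1 was far below PSPH, with at most 561 counts in any library against at least 2491. The per-kilobase levels rest on the exonic length annotated for each gene. Reads can be split between these copies, which was not tested.

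Within a library, the ratio of 2 genes does not depend on how libraries are scaled, but it does not include the length and GC correction. Per kilobase of exon, PSAT1 stood at 2.087 and 2.177 times PHGDH in resistant libraries, against 4.691 and 4.398 times in control libraries. PSPH stood at 0.4405 and 0.4452 times PHGDH in resistant libraries and 1.284 and 1.174 times in control libraries. With the length and GC correction, log2 fold changes were -0.76 for PSAT1, -1.37 for PSPH and -0.27 for PHGDH. Without it they were -1.03, -1.41 and 0.055, so PSAT1 and PHGDH lay closer together with the correction. These levels rest on 2762 exonic bases annotated for PSPH and 9217 for PHGDH, and by raw counts PHGDH was above PSPH in every library.

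Both mitochondrial one-carbon genes were lower, MTHFD2 by more. MTHFD2, a folate dehydrogenase and cyclohydrolase, had 162.7 and 161.9 CPM in resistant libraries and 348.7 and 346.6 CPM in control libraries. Replicates differed by at most 0.604% of their mean, the least of the 10 genes. The log2 fold change was -1.10 (SE 0.0362, edgeR adjusted p = 2.88e-10). SHMT2, the mitochondrial serine hydroxymethyltransferase, had 208 and 198.4 CPM in resistant libraries and 289.6 and 310.3 CPM in control libraries. The groups did not overlap, and the log2 fold change was -0.56 (SE 0.0441, edgeR adjusted p = 3.92e-07).

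MTHFD2 shares 27.2% of its exonic bases with SLC4A5 on the opposite strand, which had at most 30 counts in any library, and its 7 pseudogene copies had at most 5. SHMT2 shares 8.8% with an antisense gene that had 47 to 65 counts per library, and 0.7% with NDUFA4L2 (173 to 218 counts).

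The cytosolic counterparts did not follow. SHMT1, the cytosolic serine hydroxymethyltransferase, rose to 79.69 ± 2.86 CPM in resistant cells, against 55.45 ± 1 CPM in control cells (SD, n = 2 each; log2 fold change 0.52, edgeR adjusted p = 9.34e-07). The level of SHMT2 relative to SHMT1, per kilobase, was 3.832 and 3.845 in resistant libraries and 7.962 and 8.315 in control libraries. MTHFD1, the cytosolic trifunctional folate enzyme, averaged 141.9 CPM in resistant cells and 144 CPM in control cells and was not called (log2 fold change -0.021, SE 0.0404, edgeR adjusted p = 0.668). MTHFD2 relative to MTHFD1, per kilobase, was 2.221 and 2.183 in resistant libraries and 4.738 and 4.562 in control libraries. The per-kilobase ratios given here do not include the length and GC correction. MTHFD2L, a mitochondrial paralog of MTHFD2, was itself lower (log2 fold change -0.94, SE 0.0462, edgeR adjusted p = 6.87e-09), and MTHFD2 relative to it was 5.985 and 6.19 in resistant libraries and 6.643 and 6.953 in control libraries.

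**Figure D2:**
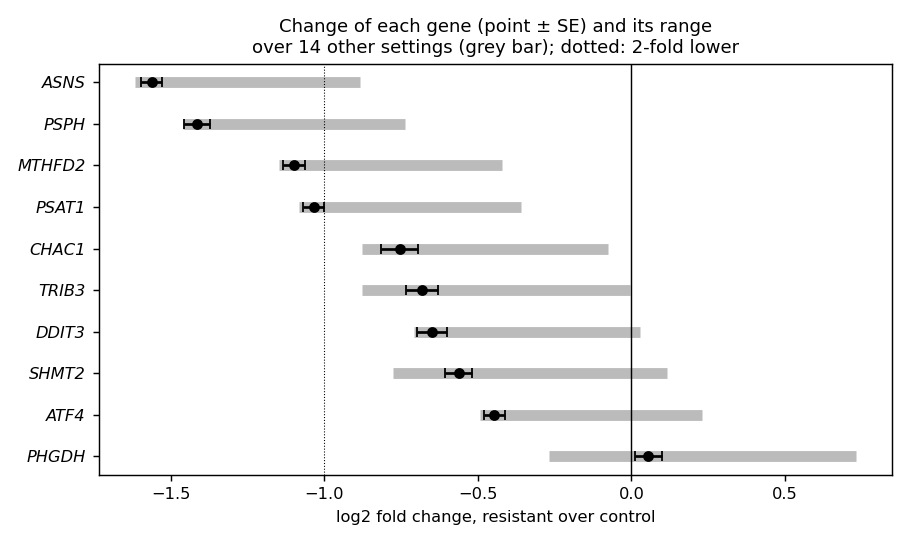
Log2 fold change of each gene, resistant over control, with its standard error (points and whiskers) and its lowest to highest value over 14 other settings (grey bars). ASNS, PSPH, MTHFD2 and PSAT1 lie below the dotted line of 2-fold lower; the right end of every bar is the value with summed counts per kilobase as library size, under which ATF4, DDIT3, SHMT2 and PHGDH are above 0.

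Ordered from the lowest log2 fold change, the genes ran ASNS, PSPH, MTHFD2, PSAT1, CHAC1, TRIB3, DDIT3, SHMT2, ATF4 and PHGDH. Neighbours whose estimates lay within the sum of their standard errors were MTHFD2 and PSAT1, CHAC1 and TRIB3, TRIB3 and DDIT3, and DDIT3 and SHMT2. ASNS, PSPH, ATF4 and PHGDH each stood further than that from their nearest neighbour.

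Because the amount of change depends on scaling, counts were also set against ATF4 within each library. These ratios do not allow for gene length, so they compare groups and not genes. ASNS had 0.4722 and 0.4766 counts per ATF4 count in resistant libraries, against 1.048 and 1.009 in control libraries. For PSPH the values were 0.1346 and 0.1307 in resistant libraries and 0.2654 and 0.254 in control libraries. MTHFD2 had 0.3545 and 0.3522 counts per ATF4 count in resistant libraries and 0.5682 and 0.5432 in control libraries. These 3 genes and PSAT1 (0.5052 and 0.5064 in resistant libraries, 0.768 and 0.7537 in control libraries) were thus lower relative to ATF4 as well as in CPM. With the length and GC correction the difference from ATF4 in log2 fold change was -1.14 for ASNS, -0.89 for PSPH and -0.52 for MTHFD2, against -1.12, -0.97 and -0.65 without it, while that of PSAT1 was -0.28, against -0.59.

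The stress genes and SHMT2 differed less from ATF4 in these counts, but that order did not hold with the length and GC correction. The difference from ATF4 in log2 fold change was then -0.40 for TRIB3 and -0.40 for CHAC1, both further from ATF4 than PSAT1 (-0.28). It was 0.015 for DDIT3 and -0.30 for SHMT2. SHMT2 and PSAT1 could not be ordered, as the standard errors of their corrected log2 fold changes were 0.031 and 0.030. In counts, DDIT3 had 0.1094 and 0.111 counts per ATF4 count in resistant libraries and 0.1233 and 0.1299 in control libraries. TRIB3 had 0.1617 and 0.1625 in resistant libraries and 0.1844 and 0.1971 in control libraries. The mean ratio in resistant cells was 0.806 times that in control cells for CHAC1 and 0.923 times for SHMT2. PHGDH went the other way, with 1.02 and 0.98 counts per ATF4 count in resistant libraries and 0.6897 and 0.7219 in control libraries. None of the 9 ratios overlapped between the groups, and neither did the ratio to ATF4 of 83.5% of all other genes tested. In 8 of the 9 both resistant libraries were below both control libraries, as for 20.6% of all other genes tested. No test was run on these ratios.

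**Figure D3:**
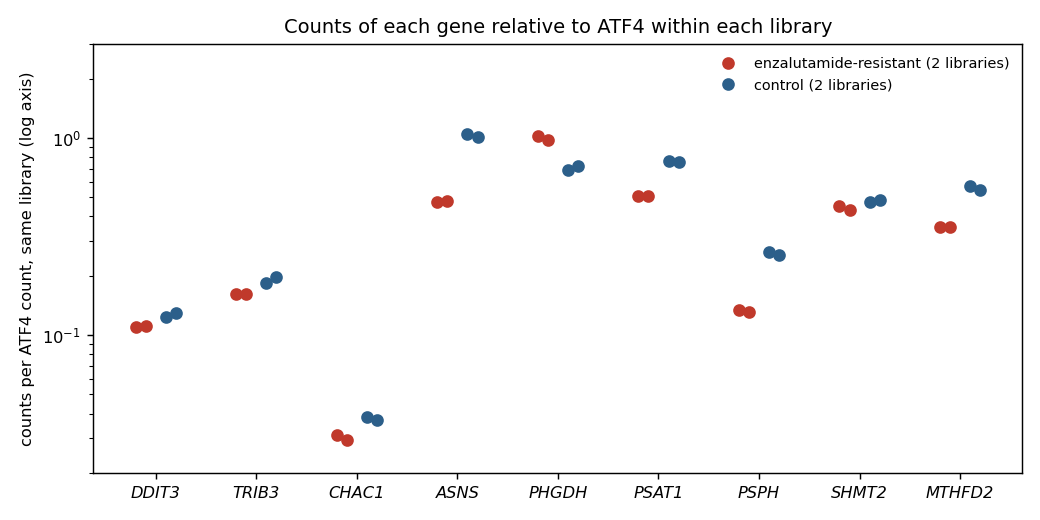
Counts of each gene divided by the ATF4 count of the same library (log axis), resistant libraries left of control libraries. ASNS shows the widest gap between groups, at 0.4722 and 0.4766 in resistant libraries and 1.048 and 1.009 in control libraries, and PHGDH alone is higher in resistant libraries.

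Per kilobase of exon, the same levels can be given as shares of the 10-gene total. These shares are not separate evidence, and a share can rise where the level fell, as for ATF4. ATF4 held 32.97% and 33.2% of the summed level in resistant libraries, against 25.9% and 26.07% in control libraries. ASNS held 8.784% and 8.93% in resistant libraries and 15.31% and 14.85% in control libraries, and PHGDH 9.171% and 8.875% in resistant libraries and 4.873% and 5.132% in control libraries. CHAC1 was the smallest part, between 1.176% and 1.258% in all 4 libraries.

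The 5 protein-coding genes whose log2 CPM over the 4 libraries lay nearest to that of ASNS, after centring each on its own mean, were BIRC5, COA6, RPS12, NDFIP2 and NDUFB5, out of 6125 candidates outside the 10 genes. Their root mean square differences from ASNS were between 0.0104 and 0.0223 on the log2 scale, and their log2 fold changes between -1.59 and -1.52. BIRC5, the mitotic inhibitor of apoptosis survivin, had 69.48 and 71.05 CPM in resistant libraries and 207.7 and 210.7 CPM in control libraries. With 4 libraries in 2 groups, likeness of this kind reflects little more than an equal fold change.

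The neighbouring pathways moved less evenly. Of 92 genes on 7 lists that passed the filter, 25 were higher and 48 lower, beside 33% and 31.7% of all genes tested, and 19 were not called. Of 13 genes that control the response (eIF2alpha and its kinases, phosphatase subunits and partner factors), 6 were higher, 3 lower and 4 not called. Their median log2 fold change was 0.11, against 0.0037 with the length and GC correction (5 higher and 4 lower) and 0.29 under total count scaling. EIF2AK3, the endoplasmic reticulum stress kinase PERK, rose to 61.87 ± 1.72 CPM in resistant cells, against 39.33 ± 1.04 CPM in control cells (log2 fold change 0.66, edgeR adjusted p = 1.73e-07). PPP1R15A, the phosphatase subunit GADD34 that reverses eIF2alpha phosphorylation, and JDP2, a bZIP repressor, rose with log2 fold changes of 0.75 and 0.57. EIF2S1, eIF2alpha itself, was lower in resistant cells, at 182.1 ± 2.84 CPM against 256.5 ± 8.34 CPM in control cells. The C/EBP partner gene CEBPG, chosen after its values were seen, was lower by a little (log2 fold change -0.15, SE 0.0401, edgeR adjusted p = 0.0056).

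Other stress targets of ATF4 were mostly lower. Of 17, 11 were lower and 2 higher, with a median of -0.30. FGF21, a secreted stress hormone, had only 7 and 9 counts in resistant libraries, and its level was 0.1811 ± 0.0509 CPM in resistant cells and 2.882 ± 0.195 CPM in control cells (log2 fold change -3.98, SE 0.256, edgeR adjusted p = 6.77e-08). CTH, of cysteine synthesis, was 2.28-fold lower and XPOT, the tRNA exportin, 1.68-fold lower. GDF15, another secreted stress factor and also a p53 target, rose 1.8-fold, to 131.3 ± 2.04 CPM in resistant cells, against 72.77 ± 5.39 CPM in control cells.

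In the endoplasmic reticulum chaperone arm, 4 of 11 tested genes were higher and 6 lower (median -0.12, turning to 0.068 under total count scaling). ERN1, the sensor IRE1, rose 1.75-fold, while the degradation factor HERPUD1 and the co-chaperone DNAJB9 were 1.28-fold and 1.3-fold lower. XBP1 was listed at 0 in all 4 libraries, so nothing can be said of it.

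Serine, glycine and folate neighbours split into 5 higher and 9 lower of 19, with a median of -0.15 that turned to 0.039 under total count scaling. SFXN1, the mitochondrial serine transporter, fell to 87.41 ± 1.68 CPM in resistant cells, against 168.1 ± 1.77 CPM in control cells (log2 fold change -0.94, SE 0.0411, edgeR adjusted p = 2.51e-09). ALDH1L1, a cytosolic formyl-folate dehydrogenase, rose 2.27-fold at a low level of 4.338 CPM in resistant cells and 1.9 CPM in control cells.

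Among asparagine, aspartate and glutamine neighbours, 4 of 12 were higher and 7 lower (median -0.23). ASRGL1, an asparaginase, was 2.91-fold lower, at 6.316 ± 0.485 CPM in resistant cells and 18.29 ± 1 CPM in control cells. The omega-amidase NIT2 was 1.93-fold lower and ASS1, which consumes aspartate in arginine synthesis, 1.45-fold lower. GLUL, glutamine synthetase, rose to 247.8 ± 4.69 CPM in resistant cells, against 178.7 ± 5.58 CPM in control cells. ASNS relative to GLUL, per kilobase and without the length and GC correction, was 1.749 and 1.817 in resistant libraries and 7.134 and 7.469 in control libraries.

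Amino acid transporters known as ATF4 targets had 5 lower and 1 higher of 8, with a median of -0.45. SLC7A11, the cystine carrier, was at 204.3 ± 2.38 CPM in resistant cells and 384.7 ± 15.1 CPM in control cells (log2 fold change -0.91, edgeR adjusted p = 2.38e-09). The leucine carrier SLC7A5 and the neutral amino acid carrier SLC38A2 had log2 fold changes of -0.64 and -0.53 (edgeR adjusted p = 1.06e-07 and 8.35e-08). Of 12 tRNA synthetase genes, 7 were lower and 3 higher, with a median of -0.19, against -0.49 with the length and GC correction (8 lower and 3 higher) and -0.0002 under total count scaling. IARS1, for isoleucine, was 1.77-fold lower and SARS1, for serine, 1.48-fold lower, whereas TARS1, for threonine, rose 1.44-fold.

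**Figure D4:**
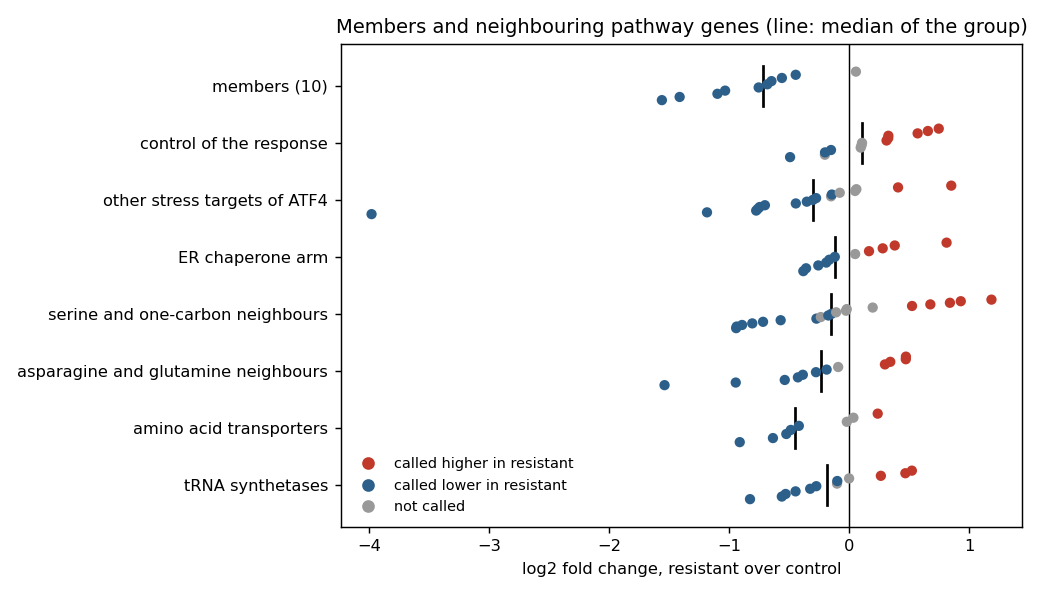
Log2 fold change, resistant over control, of the 10 genes (top row, labelled members) and of each neighbouring gene list, 1 point per gene tested, coloured by its call, with a line at the list's median. Of the 10 genes, 9 lie left of 0, while the list of genes that control the response has a median of 0.11 and the point near -4 is FGF21.

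The element core shown above was also counted in the neighbouring genes. It was present in a window of 19 of the 76 neighbours with one, and in 7 of 10 tRNA synthetase genes. Of the 19 genes with the letters, 5 were called higher, 10 lower and 4 not called. Of the 56 tested genes whose windows lacked them, 16 were higher, 26 lower and 14 not called. The 17 tested neighbours without a window split into 4 higher, 12 lower and 1 not called. Over all genes tested, 33% were called higher and 31.7% lower. The 7 tRNA synthetase genes that held the letters split into 3 higher, 3 lower and 1 not called.

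The fall of ATF4 and of the less changed genes depended on what libraries were scaled by. With TMM, RLE, total gene counts or protein-coding totals, all 9 genes stayed lower at an adjusted p below 0.05. When libraries were instead scaled by their summed counts per kilobase, an alternative added after the data were seen, the median of all genes shifted by 0.68 on the log2 scale. In that sum, genes of under 400 exonic bases held 54.9% and 56.6% in resistant libraries and 66% and 65.7% in control libraries. ASNS (-0.89), PSPH (-0.74), MTHFD2 (-0.42) and PSAT1 (-0.36) were then still called lower, ATF4 (0.23) and PHGDH (0.73) were called higher, and the other 4 genes were not called, with DDIT3 at 0.028 and SHMT2 at 0.12. The medians of all 7 neighbouring lists were above 0 on that scale. With the length and GC correction, all 10 genes were called lower.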

How the data were processed

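RNA from 2 resistant and 2 control libraries of C4-2 cells was compared. Each library has its own deposited table of raw, unnormalized read counts by gene. The submitters' processing notes name STAR 2.5.2b, HTSeq and the build GRCh38 (hg38). How HTSeq was set for strand and shared reads, and which annotation it used, are points not given in the sources used here. Summary lines of HTSeq, 5 per table, entered neither library sizes nor tests.

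Identifiers were matched without version to GENCODE 29, which annotated 56753 of 60483. Counts were filtered with filterByExpr (minimum count 10), scaled (TMM) and tested in R 4.3.3 by edgeR 4.0.16 (quasi-likelihood F test), with group as the only term, 2 residual degrees of freedom and Benjamini-Hochberg adjustment over 20325 genes at 0.05. The standard error is the size of the log2 fold change divided by the square root of F. Levels per kilobase divide CPM by the union of annotated exons. Within pairs, counts differed beyond sampling noise (chi-square per degree of freedom 2.38 in resistant and 5.67 in control libraries). Each library was treated as 1 replicate, although that spread does not show that the libraries were separate cultures. The length and GC correction used per-library offsets from natural splines (5 degrees of freedom each). DESeq2 1.42.0 and other filters and scalings were alternatives.

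The members, lists and tests were chosen with earlier results of these data known. Named genes were the 10 members, from each list the 3 called genes with the smallest adjusted p and the called gene with the largest change, pseudogene copies and overlapping genes with at least 10 counts in a library, and the 5 genes nearest to ASNS whose mean log2 CPM was 5 or more. SHMT1, MTHFD1, GLUL and CEBPG were named outside that rule, after their values were seen. Some genes that the rule or the marker list would name are not reported here.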

Additional observations from a re-analysis of the deposited data

How the results depend on the processing

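Over 14 other settings, ASNS, PSAT1, PSPH and MTHFD2 kept their direction and their call. ATF4, DDIT3, TRIB3, CHAC1 and SHMT2 did so in 13 of 14, the exception being scaling by summed counts per kilobase, which was added after the data were seen. It gave log2 fold changes of 0.23 for ATF4, 0.028 for DDIT3 and 0.12 for SHMT2, and called 2 of the 10 genes higher and 4 lower, with 13284 higher and 1847 lower over all genes. It shifted the median of all genes by 0.68, and total count scaling shifted it by 0.19 (8615 higher and 4761 lower over all genes). PHGDH turned to -0.27 with the length and GC correction, alone or with the replicate block. Leaving out 1 library at a time, which leaves 1 residual degree of freedom and assumes that the lone sample varies like the pair, gave PHGDH values between -0.00095 (without control replicate 1) and 0.13 (without control replicate 2). In those fits 0 to 1 of the 10 genes was called higher and 9 were called lower. Total count scaling, no count filter and protein-coding totals also called 1 of the 10 genes higher, which was PHGDH.

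The labels do not say whether libraries with the same replicate number shared a culture or day. Differences of replicate 1 minus 2 correlated at -0.023 between the groups, which cannot settle that. With the replicate block, 6647 genes were higher and 6444 lower, and 0 and 9 of the 10 genes. Among the neighbouring lists, the medians of the chaperone and serine lists turned positive under total count scaling (0.068 and 0.039). That scaling also gave medians of 0.29 for genes that control the response, -0.11 for other stress targets, -0.045 for asparagine neighbours, -0.27 for transporters and -0.0002 for tRNA synthetases. The length and GC correction gave 0.0037 for genes that control the response, -0.45 for other stress targets and -0.49 for tRNA synthetases, and the serine list was at -0.25 without control replicate 2. Under scaling by summed counts per kilobase all 7 medians were positive. The cause of these changes was not tested. The count of the 10 genes at least 2-fold lower was 4 in 8 of 14 other settings, 3 without a count filter and with protein-coding totals, 2 with the length and GC correction (alone or with the block) and under total count scaling, and 0 under scaling by summed counts per kilobase. Depth did not limit the 10 genes, whose lowest count was 562.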
